A study of Mus musculus with 4 samples.

Results

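The proepicardium is a cluster of mesothelial cells at the venous pole of the embryonic heart. Its cells attach to the bare myocardium, spread over it as an epithelial sheet, the epicardium, and later leave that sheet by epithelial-to-mesenchymal transition to form fibroblasts and vascular mural cells. The epicardium is also a source of retinoic acid and of growth factors that act on the myocardium beneath it. Uroplakin 3b (Upk3b), a membrane protein of mesothelial surfaces, is a marker of these cells, as are the transcription factors Wt1, Tbx18 and Bnc1, the uroplakin Upk1b and the epithelial keratin Krt19.

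Upk3b-marked cells of the E9.5 and E10.5 mouse embryo are described here. They were chosen by measured values: a retained cell (1000 or more detected genes, at most 10% of its UMIs from mitochondrial genes) was taken if it held at least 1 UMI, a counted captured molecule, of Upk3b and at least 1 UMI of each of 2 or more of Wt1, Tbx18, Upk1b, Krt19 and Bnc1. The rule found 455 cells among 12094 retained cells of the late stages and 22625 retained cells of all 4 stages. There were 113 such cells at E9.5, 2.79% of the library (exact 95% interval 2.30 to 3.34%, counting error only), and 342 at E10.5, 4.25% (3.82 to 4.72%).

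All libraries came from Swiss Webster embryos of the genotype Mesp1Cre;Rosa26-GFPflox/+, with no untreated or mutant group. Cre made from the Mesp1 gene, which is active in early mesoderm, switches the GFP reporter on permanently, so that GFP marks descendants of that mesoderm and not a present cell type. Living GFP-positive cells were sorted from the pharyngeal apparatus together with the heart for the late stages, in each case from pooled embryos according to the study's methods, and from the upper region of the embryo's body for E8.0 and for E8.25. There was 1 library per stage, so stage and library cannot be told apart, and no test between stages was possible. The late libraries held 4055 and 8070 deposited cells, of which 4052 and 8042 were retained, with a median of 17408 and 15611 UMIs per retained cell, and they shared 41 cell barcodes.

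The 6 selection genes lie on different chromosomes of the mouse assembly GRCm38.p6: Upk3b at chr5:136038496-136044993, Wt1 at chr2:105126529-105173614, Tbx18 at chr9:87702800-87731260, Upk1b at chr16:38773182-38800203, Krt19 at chr11:100140810-100145926 and Bnc1 at chr7:81966657-81992299. A few promoters are shown because Upk3b defines the cells, and Lrrn4 and Krt7 are genes outside the rule with large differences given further on. Each sequence covers the 250 bases before a RefSeq transcript start on that assembly and reads 5′ to 3′ on the gene's strand. Capitals mark a match to 1 of 5 searched motifs.
Upk3b, chr5:136038246-136038495, plus strand: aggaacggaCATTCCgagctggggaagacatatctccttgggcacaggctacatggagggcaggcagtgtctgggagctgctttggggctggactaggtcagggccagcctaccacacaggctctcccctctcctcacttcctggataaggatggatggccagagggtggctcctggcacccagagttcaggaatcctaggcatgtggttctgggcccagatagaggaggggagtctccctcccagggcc
Lrrn4, chr2:132880863-132881112, minus strand: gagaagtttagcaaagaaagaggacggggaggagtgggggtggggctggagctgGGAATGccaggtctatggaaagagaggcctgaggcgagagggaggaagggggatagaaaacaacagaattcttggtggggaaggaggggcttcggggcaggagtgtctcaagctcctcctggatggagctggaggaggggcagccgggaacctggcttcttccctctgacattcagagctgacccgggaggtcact
Krt7, chr15:101412153-101412402, plus strand: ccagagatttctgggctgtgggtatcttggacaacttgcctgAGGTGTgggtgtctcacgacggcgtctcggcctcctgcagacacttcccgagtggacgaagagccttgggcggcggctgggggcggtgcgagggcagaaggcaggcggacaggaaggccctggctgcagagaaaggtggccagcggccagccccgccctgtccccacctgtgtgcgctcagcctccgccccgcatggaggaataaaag
The capitals in Upk3b and Lrrn4 mark GGAATG or its reverse complement CATTCC, the core recognised by TEAD factors. This motif was in the windows of 3 of 16 genes (Upk3b, Lrrn4 and Gpm6a) among the 22 selection and epicardial list genes, 16 of which had a window, and in 12.6% of all 32851 promoter windows. The capitals in Krt7 mark AGGTGT, the core bound by T-box factors such as Tbx18, which was found in either orientation in 5 of the 17 windows of these genes and in 11.8% of all windows. The GATA core AGATAA was in 3 of the 17 windows (9.99% of all), the WT1 motif GCGTGGG in 1 of 17, that of Aldh1a2 (4.3% of all), and the E-box CAGCTG in 0 of 17 (13.0% of all). All motifs were searched on both strands. A match describes letters in a window and not a bound site.

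The levels of the selection genes describe the choice and are not a result. At E9.5, Upk3b had a median of 3 and a maximum of 16 UMIs per marked cell, and at E10.5 a median of 10 and a maximum of 54. Wt1 was detected in 88.5% of E9.5 and 90.9% of E10.5 marked cells, Tbx18 in 68.1% and 82.2%, and Krt19 in 60.2% and 62.3%. Bnc1 was detected in 43.4% and 61.4%, and Upk1b in 10.6% and 55.8%. All 5 second markers were present together in 3 marked cells of E9.5 and 101 of E10.5, while 60 and 100 cells had only the required 2. In counts per 1e6 UMIs of the summed marked cells (CPM), Upk3b stood at 150 (E9.5) and 550 (E10.5), Tbx18 at 195 and 246, Wt1 at 111 and 163, Krt19 at 107 and 147, Bnc1 at 26.1 and 41.6, and Upk1b at 14.9 and 115.

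Cells on either side of the threshold were compared by genes the rule did not use. At E9.5, the 60 marked cells with exactly 2 second markers had Lrrn4 at 37.0 CPM and Krt18 at 318 CPM, against 25.8 and 268 CPM in the 44 cells with Upk3b and only 1 second marker. The 364 E9.5 cells with 2 or more second markers but no Upk3b UMI had Lrrn4 at 8.08 and Krt18 at 91.0 CPM, but more Tcf21 (88.0 against 71.8 CPM) and Sema3d (12.9 against 5.08 CPM) than the cells just inside. At E10.5, the corresponding Krt18 levels were 182 CPM in 100 cells just inside, 119 CPM in 156 cells with 1 second marker and 54.5 CPM in 198 cells without Upk3b. Tcf21 and Sema3d had the opposite order from E9.5. They stood at 83.5 and 20.9 CPM in the E10.5 cells just inside, against 64.7 and 6.52 CPM in those without Upk3b.

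Marked cells were deeper than the remaining retained cells. Their median was 23137 UMIs (E9.5) and 23382 (E10.5), against 17296 and 15408 in other cells. When every cell was thinned to 5000 UMIs, the rule picked 0.571% of the E9.5 and 2.38% of the E10.5 cells. Among cells with 3 or more endothelial marker genes, which should lack Upk3b, 0 of 228 had an Upk3b UMI at E9.5 and 23 of 454 (5.07%) at E10.5, at median depths of 17655 and 18562 UMIs. Among unmarked retained cells, 94 of 3939 (2.39%) and 410 of 7700 (5.32%) had an Upk3b UMI. The highest doublet scores (doublets are droplets holding more than 1 cell) fell on 5 of 113 marked cells at E9.5 (4.42%, other cells 3.20%). At E10.5 they fell on 52 of 342 (15.2%, other cells 6.06%). The part of these cells in the results below was not tested beyond counts without them, given at the end.

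To see whether the marked cells formed one population, each library was clustered without the 6 selection genes. At E10.5, 168 of 342 marked cells (49.1%) lay in cluster 3, where they made up 96.0% of 175 cells. Its leading genes were Dcn, Apela, Lrrn4, Aldh1a1 and Krt7. A further 100 (29.2%) lay in cluster 4, where they made up 53.8% of 186 cells and which was led by Krt18, Epcam, Dlk1, Myrf and Tnc. The remaining 74 cells were spread over 11 other clusters. At E9.5 the picture differed: only 34 of 113 marked cells (30.1%) lay in cluster 10, where they were 60.7% of 56 cells and which was led by Sfrp5, Itga4, Tubb3, Lhx9 and Cthrc1. Another 31 were in cluster 1 (8.54% of its 363 cells), led by Ppp2r2b, Msx2, Dkk1, Mab21l2 and Crispld1, 16 in cluster 9 and 13 in cluster 8, which was led by Barx1, Ifitm1, Osr1, Hoxa5 and Foxf1. Lrrn4 and Krt7, genes of the epicardial list that the rule did not use, led E10.5 cluster 3, and Sfrp5 of that list led E9.5 cluster 10, while cluster 4 was led by Krt18 of that list together with general epithelial and other genes. Most E9.5 cells chosen by the rule did not gather in a cluster of their own, and the cells are therefore called Upk3b-marked cells throughout. The share of E9.5 marked cells in their most populated cluster also moved with the clustering, to 56.6% at a coarser resolution and 44.2% with another seed, and those larger clusters held 10.7% and 9.88% marked cells.

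**Figure D1:**
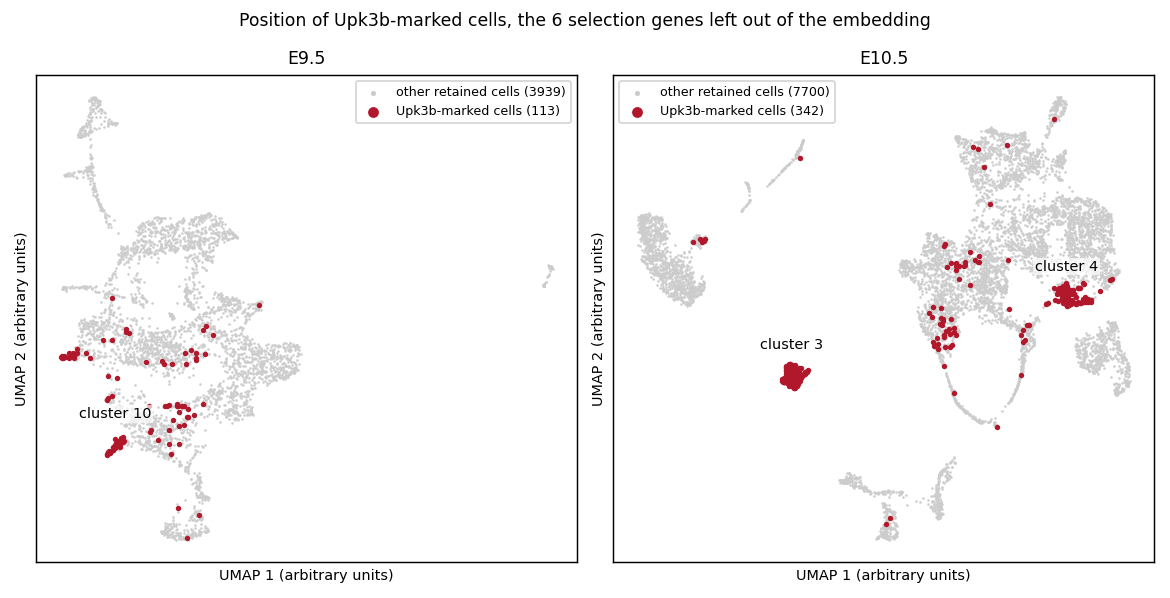
UMAP embeddings (axes in arbitrary units) of the E9.5 and E10.5 libraries, each point a retained cell, with Upk3b-marked cells in red and other cells in grey. At E10.5 most of the 342 marked cells sit in clusters 3 and 4, whereas 34 of the 113 at E9.5 sit in cluster 10 and the rest are scattered.

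The marked cells varied along this division. Because clusters are built from the same genes, these values are given without a test. The dense clusters, E9.5 cluster 10 and E10.5 cluster 3, shared high levels of genes that were low in marked cells elsewhere. Tcf21, a transcription factor of epicardium-derived fibroblasts and of pharyngeal muscle, stood at 247 CPM in E9.5 cluster 10 and 352 CPM in E10.5 cluster 3, against 49.7 CPM in the other E9.5 marked cells and 95.2 and 88.3 CPM in E10.5 cluster 4 and elsewhere. Itga4, the alpha 4 integrin needed for epicardial attachment to the heart, stood at 211 and 118 CPM in the dense clusters and between 3.11 and 10.1 CPM in the other 3 subsets. The same division was seen for Sox9 (234 and 137 CPM against 13.0 to 22.4 CPM), a transcription factor of connective tissue progenitors, for Ebf1 (165 and 129 against 8.29 to 38.6 CPM) and for the LIM-homeobox gene Lhx9 (105.1 and 50.2 against 0.915 to 5.70 CPM). Sema3d, a secreted guidance factor of the proepicardium, stood at 26.6 and 57.3 CPM against 4.15 to 17.9 CPM. The cytoskeletal and matrix genes Vim (989 and 1340 CPM against 409 to 445 CPM) and Sparc (819 and 1419 against 437 to 619 CPM) followed the same order.

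E10.5 cluster 3 had levels of its own for several genes. Krt7, a keratin of simple epithelia, stood at 153 CPM in cluster 3, 60.8 CPM in cluster 4 and 5.32 CPM in E9.5 cluster 10. Aldh1a1, a retinaldehyde dehydrogenase, stood at 131 CPM in cluster 3 and at most 19.9 CPM in the other subsets. Aldh1a2, the main retinoic acid synthase of the early embryo, had another distribution: it stood at 1.33 CPM in E9.5 cluster 10, at 61.1 CPM in the other E9.5 marked cells, and at 95.1, 102 and 112 CPM in the E10.5 subsets.

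E10.5 cluster 4 differed from cluster 3 in other genes. Epcam, an epithelial adhesion molecule, stood at 21.5 CPM there against 0.234 CPM in cluster 3. Its 47 UMIs in cluster 4 came from 11 of the 100 marked cells, with up to 20 UMIs per cell. The tight junction gene Cldn6 stood at 14.6 CPM in cluster 4, all of it from 2 cells. Cluster 4 also held more Mab21l2 (66.8 against 10.8 CPM), Angpt1 (46.2 against 3.27), Cxcl12 (69.1 against 8.88) and Meis2 (447 against 137 CPM). Marked cells outside all of these clusters had more Isl1, a marker of second heart field progenitors, at 37.8 CPM (E9.5) and 82.7 CPM (E10.5), against 2.66 CPM in E9.5 cluster 10, 2.34 CPM in E10.5 cluster 3 and 23.8 CPM in E10.5 cluster 4. Hand1 and the ligand Wnt6 stood at 94.8 and 49.2 CPM in the scattered E9.5 cells and at no more than 25.2 and 6.40 CPM in the other 4 subsets. Krt18 (143 to 370 CPM) was present in all 5 subsets.

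**Figure D2:**
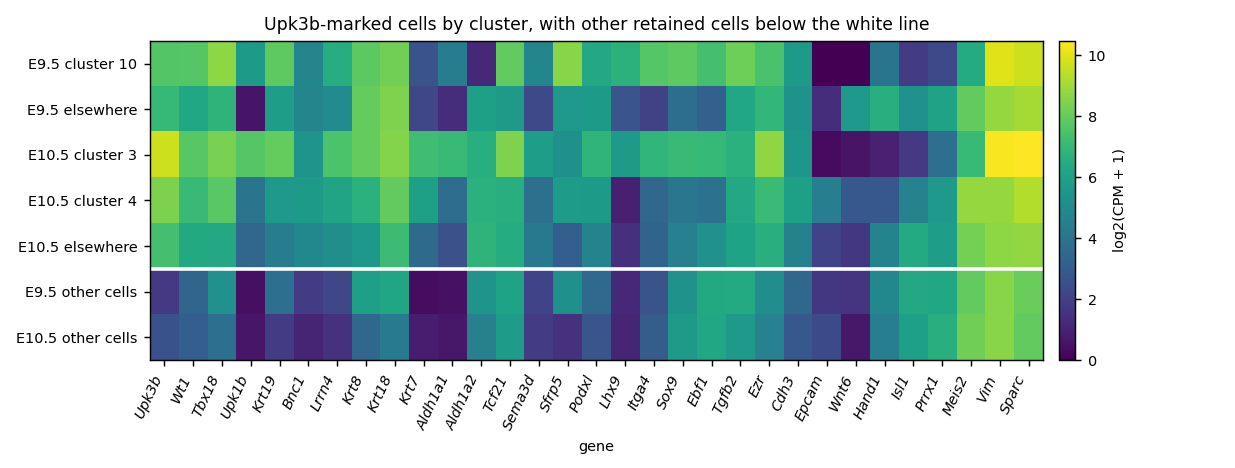
Heat map of log2(CPM + 1) for genes (columns) in 5 subsets of Upk3b-marked cells (rows above the white line) and in other retained cells of each stage (below it). Itga4, Sox9, Ebf1 and Lhx9 are high in E9.5 cluster 10 and E10.5 cluster 3 and low in the other subsets, while Krt18 is high in all 5.

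Which genes outside the rule separated the marked cells from the rest was asked next. UMIs were summed over marked and over other retained cells of each library, and the 4 sums were compared with the edgeR quasi-likelihood test with library as a block, at a Benjamini-Hochberg adjusted p below 0.05. The replicates of this test are the 2 libraries, which differ in stage, with 1 residual degree of freedom, and cells of 1 library share their embryos. Of 14443 genes tested, 793 were higher in marked cells (5.49%) and 639 lower (4.42%), and 790 and 631 of these had the same direction in each library. Without the library block, 0 genes passed in either direction (911 higher and 708 lower at an unadjusted p below 0.05). By DESeq2, 563 were higher and 337 lower. With only the marked cells outside the 3 clusters in which they were the majority, 279 were higher and 340 lower.

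Of the epicardial and mesothelial genes that the rule did not use, 9 of 14 tested were higher in marked cells and 0 lower, with a median log2 fold change of 2.63 against -0.03 over all genes. Lrrn4, a leucine-rich membrane protein of mesothelium, stood at 48.5 CPM in marked and 3.71 CPM in other cells at E9.5, and at 119 and 1.84 CPM at E10.5 (log2 fold change 4.89 ± 0.47 SE, adjusted p = 0.00118). Lrrn4 UMIs were found in 54.9% of E9.5 and 73.4% of E10.5 marked cells, against 2.6% and 5.3% of endothelial cells. When every cell was thinned to 5000 UMIs, the shares were 18.6% and 40.6% against 0% and 1.5%.

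The simple-epithelial keratins followed. Krt18 stood at 333 against 70.1 CPM at E9.5 and 289 against 19.2 CPM at E10.5 (log2 fold change 3.03 ± 0.32, adjusted p = 0.00151), and its partner Krt8 at 246 against 58.6 and 167 against 10.3 CPM (2.99 ± 0.37, adjusted p = 0.00304). Krt7 stood at 4.10 against 0.263 CPM at E9.5 and 97.8 against 0.744 CPM at E10.5 (6.31 ± 0.55, adjusted p = 0.000892). Podxl, an anti-adhesive sialomucin of podocytes and mesothelium, stood at 59.3 against 10.9 and 78.4 against 5.84 CPM (3.07 ± 0.26, adjusted p = 0.000875). Each of these 4 genes was also called in marked cells outside the majority clusters.

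Tcf21 and the secreted Wnt inhibitor Sfrp5 were higher over all marked cells but not over the scattered ones. Tcf21 stood at 105.1 against 67.1 CPM at E9.5 and 227 against 53.9 CPM at E10.5 (log2 fold change 1.34 ± 0.26, adjusted p = 0.0172). Outside the majority clusters its log2 fold change was 0.08 and was not called. Against other cells at or above the marked cells' median depth, neither gene was called (1.54 and 3.05). Sfrp5 stood at 145 against 37.5 and 35.1 against 1.85 CPM (2.97 ± 0.44, adjusted p = 0.00613), and outside those clusters at a log2 fold change of 0.68, which was not called. Sema3d (2.88 ± 0.44) and Rspo1 (0.95 ± 0.18), an activator of Wnt signalling, were higher as well. Aldh1a2, Scx, Bnc2 and Gpm6a did not pass, with Aldh1a2 at 44.4 against 41.3 CPM at E9.5 and 101 against 22.9 CPM at E10.5 (adjusted p = 0.103). The mature mesothelial genes Msln and Muc16 were at 0 CPM in marked cells at E9.5 and at 0.848 and 1.21 CPM at E10.5.

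**Figure D3:**
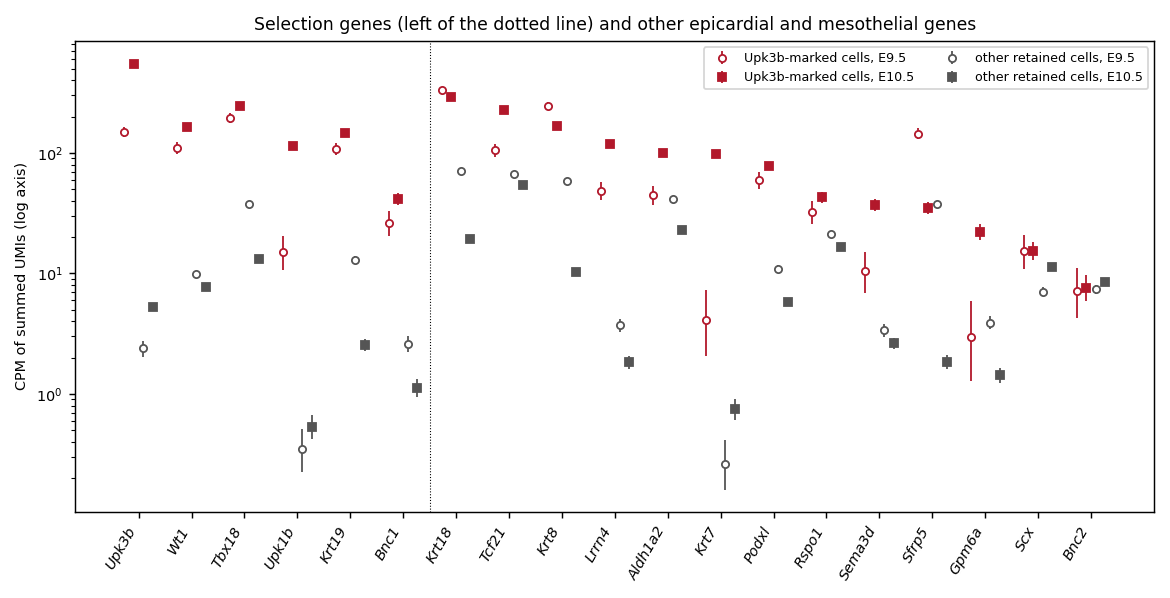
CPM of summed UMIs (log axis) of 19 genes in Upk3b-marked cells (red) and other retained cells (grey) at E9.5 (open circles) and E10.5 (filled squares), with exact 95% Poisson intervals that cover counting error only. To the right of the dotted line, Lrrn4, Krt7, Krt8, Krt18 and Podxl are higher in marked cells in each library, and Bnc2 lies at about 7 to 9 CPM in every class.

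Epithelial junction and polarity genes were higher in 7 and lower in 1 of 16 tested, with a median log2 fold change of 1.16. Ezr (ezrin), which links membrane to actin at apical surfaces, stood at 136 against 34.0 CPM at E9.5 and 275 against 23.9 CPM at E10.5 (2.74 ± 0.29, adjusted p = 0.00156). The polarity genes Pard6b (2.73 ± 0.33) and Crb2 (2.51 ± 0.44), the cadherin Cdh3 (2.36 ± 0.19), the tight junction scaffold Tjp1 (0.62 ± 0.13) and the claudins Cldn3 and Cldn6 were higher too. Few cells carried the claudins: Cldn3 UMIs came from 2 marked cells of E9.5 and 22 of E10.5, and Cldn6 UMIs from 1 and 2 cells. Cldn6 stood at only 1.12 and 3.88 CPM, and its fold change changed sign when 3 second markers were required. Cldn11 was lower (-2.10 ± 0.28). The classical epithelial cadherin gene Cdh1 was at 0 CPM (E9.5) and 1.33 CPM (E10.5) in marked cells.

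Genes of mesenchyme and of epithelial-to-mesenchymal transition went both ways: 4 of 16 were higher and 2 lower, with a median log2 fold change of -0.05. Vimentin (Vim) stood at 597 against 385 CPM at E9.5 and 901 against 387 CPM at E10.5 (0.87 ± 0.11, adjusted p = 0.00321), but its log2 fold change was 0.05 and not called outside the majority clusters. The fibrillar collagen genes Col1a1 (1.14 ± 0.11) and Col1a2 (0.72 ± 0.10) were higher. Sox9 (0.77 ± 0.13) was higher over all marked cells and had a log2 fold change of -1.42 outside the majority clusters. The transition factors Snai1 (-0.99 ± 0.21) and Prrx1 (-1.21 ± 0.23) were lower.

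Of 14 basement membrane genes, 4 were higher and 0 lower (median log2 fold change 0.30). They were Sparc, a collagen-binding matrix protein, at 609 against 277 CPM at E9.5 and 994 against 248 CPM at E10.5 (1.51 ± 0.15, adjusted p = 0.00146), and the laminin chains Lama5 (1.78 ± 0.36), Lamc1 (1.08 ± 0.20) and Lamb1 (0.88 ± 0.22). Outside the majority clusters Sparc and Lamc1 were called and the others were not.

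Among 18 cardiac mesoderm transcription factors, 4 were higher and 6 lower. Gata4 stood at 59.7 against 32.7 CPM at E9.5 and 59.97 against 14.6 CPM at E10.5 (1.42 ± 0.23, adjusted p = 0.00868), and Gata6 at 144 against 76.3 and 120 against 40.3 CPM (1.19 ± 0.14, adjusted p = 0.00237). Hand2 (0.95 ± 0.12) and Mab21l2 (1.36 ± 0.18), which is needed for proepicardial outgrowth, were also higher. Nkx2-5, which drives the myocardial programme, stood at 17.9 against 50.7 CPM and 6.06 against 22.9 CPM (-1.78 ± 0.18, adjusted p = 0.00148). The progenitor factors Isl1 (-1.41 ± 0.13), Foxf1 (-1.29 ± 0.15) and Osr1 (-1.17 ± 0.23) were lower, and none of these 3 was called in the marked cells outside the majority clusters, where the Osr1 value was 0.02. Nr2f1 (-0.57 ± 0.14) and Meis2 (-0.31 ± 0.08) were lower by small amounts. Tbx5 stood at 39.1 against 35.3 and 20.6 against 27.1 CPM and was not called.

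In the retinoic acid pathway, 1 of 16 genes was higher and 6 were lower (median log2 fold change -0.74). The higher gene was Aldh1a1, at 6.71 against 0.388 CPM at E9.5 and 72.3 against 0.610 CPM at E10.5 (6.0 ± 0.54, adjusted p = 0.00101). It was detected in 8.8% of E9.5 and 44.2% of E10.5 marked cells, against 0.4% and 0.2% of endothelial cells. The lower genes were Rdh10, which makes the retinaldehyde substrate (-1.11 ± 0.20), the retinol transporter Stra6 (-1.11 ± 0.21), the binding proteins Crabp1 (-1.47 ± 0.13) and Crabp2 (-1.22 ± 0.15), and the retinoic acid-degrading enzymes Cyp26a1 (-2.09 ± 0.50) and Cyp26b1 (-2.30 ± 0.55).

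Of 22 secreted ligands, 5 were higher and 4 lower. Higher were Bmp2 (1.33 ± 0.18), at 32.1 against 11.5 CPM at E9.5 and 16.8 against 6.79 CPM at E10.5, Wnt11 (1.65 ± 0.37), the myocardial mitogens Fgf9 (1.34 ± 0.29) and Igf2 (0.55 ± 0.10), and Tgfb2 (0.71 ± 0.10). Igf2 stood at 166 against 129 CPM and 330 against 185 CPM, and its value was -0.03 outside the majority clusters. Lower were Tgfb1 (-1.65 ± 0.19), Nrg1 (-1.61 ± 0.29), Fgf10 (-1.20 ± 0.24) and the chemokine Cxcl12 (-0.70 ± 0.16). Outside the majority clusters, Fgf9 and Tgfb1 alone of these 9 were called, and by DESeq2 Fgf9, Wnt11 and Fgf10 were not. Fgf16, Shh and Epo had 0 UMIs in marked cells of either library.

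Among 22 receptors and adhesion partners, 3 were higher and 4 lower. Itga4 stood at 61.5 against 5.55 CPM at E9.5 and 66.0 against 7.49 CPM at E10.5 (3.23 ± 0.16, adjusted p = 0.000128), with a log2 fold change of -0.20 outside the majority clusters. The adhesion molecule Alcam (1.60 ± 0.19) and the integrin beta chain Itgb1 (0.42 ± 0.10) were higher. Vcam1, the counter-receptor of alpha 4 integrin (-1.62 ± 0.34), the erythropoietin receptor Epor (-2.40 ± 0.42), the hedgehog receptor Ptch1 (-1.51 ± 0.17) and Fgfr1 (-0.98 ± 0.14) were lower. Alcam, Epor and Ptch1 were also called outside the majority clusters. None of the 12 G2/M genes and 1 of the 12 S phase genes passed, with median log2 fold changes of -0.18 and -0.10.

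**Figure D4:**
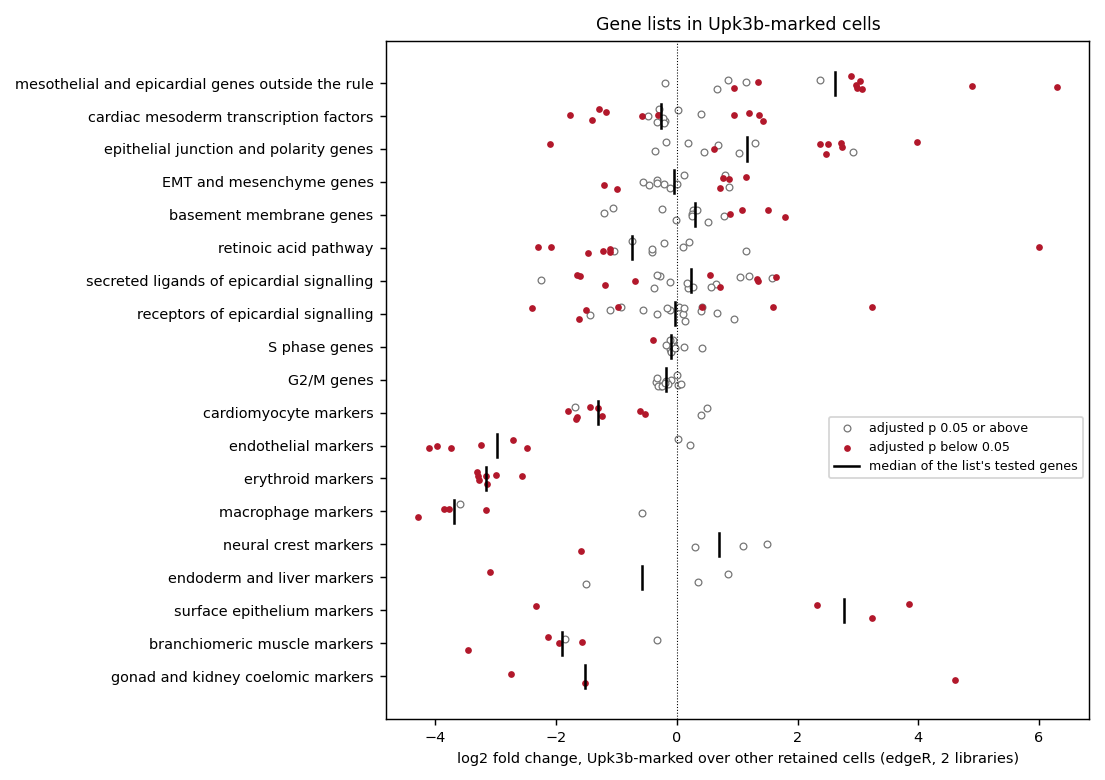
Log2 fold change of Upk3b-marked over other retained cells (edgeR, 2 libraries) for the tested genes of 19 lists, filled where the adjusted p is below 0.05, with the list median as a bar. The median is 2.63 for epicardial and mesothelial genes and lies below -2.9 for endothelial, erythroid and macrophage markers.

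Markers of the other cell types the sort could hold were read in the same sums. Endothelial markers were lower in 6 of 8 genes, macrophage markers in 4 of 6 and erythroid markers in 7 of 7. The other retained cells include the endothelial, blood and muscle cells themselves. The median marked cell held 62.9 (E9.5) and 79.4 CPM (E10.5) of endothelial markers, against 55.6 and 24.6 CPM in the median other cell. Among these markers Egfl7 was the most widespread, with UMIs in 94 marked cells of E9.5 and 247 of E10.5. Tek, the next, was found in 9 and 74, and Pecam1 in 3 and 8. Erythroid medians at E10.5 were 5173 CPM in marked and 5151 CPM in other cells. Macrophage medians were 0 in both. Branchiomeric muscle medians were 0 against 53.7 CPM at E9.5 and 44.5 against 30.1 CPM at E10.5. Summed over the 11 cardiomyocyte markers, marked cells stood at 2999 CPM (E9.5) and 1596 CPM (E10.5), against 41739 and 42830 CPM in gated cardiomyocytes. These markers were lower in 8 of 11 genes and higher in 0. The sum for the other retained cells was 4282 and 1213 CPM, but the median marked cell held 924 and 1000 CPM of these markers, against 225 and 90.8 CPM in the median other cell. Myl7, which was not called, stood at 1099 and 983 CPM in marked cells, and 3 and 2 marked cells had 1% or more of their UMIs from the 5 cardiomyocyte gate genes. Branchiomeric muscle markers were lower in 4 of 6 genes, neural crest markers in 1 of 4 and endoderm and liver markers in 1 of 4, none of these lists with a gene called higher. Of 4 surface epithelium markers, Wnt6, Grhl3 and Krt14 were higher in marked cells and 1 was lower, while Trp63, which defines that epithelium, was at 0, with Wnt6 at 35.4 against 1.99 CPM at E9.5 and 2.42 against 0.580 CPM at E10.5. Of the gonad and kidney list, Lhx9 was higher, at 33.6 against 1.22 and 26.7 against 1.11 CPM (4.61 ± 0.22, adjusted p = 0.00012), 2 genes were lower, and Nr5a1, which defines the gonadal primordium, was at 0. Alb and Cdx2, of liver and gut, were at 0.

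The named genes with the largest fold changes included further members of no list. Tubb3, a neuronal-type tubulin, stood at 99.5 against 17.2 CPM at E9.5 and 80.5 against 12.9 CPM at E10.5 (2.52 ± 0.12, adjusted p = 0.00012), with a value of -1.09 outside the majority clusters. Aplp1, a relative of the amyloid precursor protein, stood at 57.4 against 9.01 and 118 against 8.96 CPM (3.17 ± 0.22). Tmem108 (2.56 ± 0.24), the membrane-bound transcription factor Myrf (2.49 ± 0.22) and the myelin and epithelial membrane protein Pmp22 (2.44 ± 0.18) followed, and these 3 and Aplp1 were also called in the scattered cells. At the other end were the platelet factor Pf4 (-4.30 ± 0.24), the embryonic globins Hba-x, Hbb-y and Hbb-bh1 (-3.27 to -3.30), Ramp2 (-2.33 ± 0.19), Apoe (-1.50 ± 0.09), Tbx1 (-1.50 ± 0.15) and the sarcomeric genes Actc1 (-1.44 ± 0.13) and Tnnc1 (-1.44 ± 0.14).

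The posterior second heart field, the progenitor mesoderm of the venous pole, was taken as a further comparison. Cells were gated for it by 2 or more of Osr1, Foxf1 and Tbx5 without Upk3b (978 cells at E9.5, 1605 at E10.5). Of 12760 genes tested, 1101 were higher in marked cells (8.63%) and 639 lower (5.01%). These counts fell to 642 and 256 by DESeq2, and to 836 and 461 without the cells of highest doublet score. Epicardial and mesothelial genes were higher in 10 of 13 and lower in 0. Scx (2.20 ± 0.31) and Gpm6a (3.18 ± 0.77) passed in this comparison, while Aldh1a2 (-0.31 ± 0.39) and Rspo1 (-0.47 ± 0.15) did not. Cryab, a small heat shock protein, stood at 77.9 against 5.64 CPM at E9.5 and 78.5 against 1.76 CPM at E10.5 (4.6 ± 0.38, adjusted p = 0.0011). The actin-binding Tagln stood at 277 against 30.5 and 284 against 33.4 CPM (3.16 ± 0.09, adjusted p = 4.82e-05), with Anxa2 (3.24 ± 0.16) and Smim1 (3.19 ± 0.12) beside it.

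Lower than in gated posterior second heart field cells were Ptch1, at 12.3 against 98.9 CPM and 14.3 against 72.5 CPM (-2.58 ± 0.18, adjusted p = 0.000756), Sparcl1 (-2.91 ± 0.29), Tmem158 (-2.68 ± 0.15), the chemokine Cxcl13 (-2.55 ± 0.37), Foxp2 (-1.93 ± 0.12), Sox11 (-1.78 ± 0.10), Isl1 (-1.68 ± 0.12), Hoxa5 (-1.66 ± 0.22) and Vcan (-1.60 ± 0.12). Ligands were higher in 8 of 20 genes and lower in 1, basement membrane genes higher in 6 of 14 and lower in 0, and 6 of 12 G2/M genes were lower. The gated cells were chosen by Osr1, Foxf1 and Tbx5, so those genes were not tested. Cardiomyocyte markers not used in a gate were higher in 5 of 6 against these cells, whose gate removed cells with 1% or more cardiomyocyte gate UMIs; their part in the result was not tested.

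Against gated cardiomyocytes (355 and 171 cells), 1221 of 11222 genes were higher in marked cells (10.9%) and 1496 lower (13.3%), each in the same direction in both libraries. All 13 epicardial and mesothelial genes tested were higher. S phase genes were higher in 11 of 12, G2/M genes in 6 of 12 and mesenchymal genes in 12 of 16. Sox9 stood at 74.9 against 8.85 and 80.3 against 6.50 CPM (3.17 ± 0.21, adjusted p = 0.00058). Tubb3 (4.58 ± 0.24), the matrix link protein Hapln1 (3.50 ± 0.23), Arg1 (3.36 ± 0.21), S100a10 (2.97 ± 0.35), Ebf1 (2.96 ± 0.27), Plat (2.80 ± 0.19) and Tcf21 (2.72 ± 0.14) were among the higher genes. Lower were Cox6a2, Casq1, Fbxl22, Nppb, Nppa, Myh6 and Ldb3, with log2 fold changes of -6.10 to -7.43. Gata4 (-0.18 ± 0.14), Gata6 (-0.16 ± 0.17) and Hand2 (-0.09 ± 0.16), which were higher than in other cells, were not called against cardiomyocytes.

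Between E9.5 and E10.5, marked cells were compared by their summed UMIs with exact conditional intervals, which cover counting error between 2 libraries and nothing else. A gene was counted if its CPM differed at least 2-fold and its 95% interval left out 0 on the log2 scale. Of 11208 genes with 20 or more UMIs, 833 were higher at E10.5 (7.43%) and 342 lower (3.05%). Of these, 247 and 164 also differed 2-fold in the same direction in other retained cells. When only the majority clusters of each stage were set side by side, 358 and 149 kept their direction with an interval that left out 0.

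Of 13 epicardial and mesothelial genes outside the rule, 6 were higher at E10.5 and 1 was lower. Krt7 went from 4.10 to 97.8 CPM (log2 ratio 4.58, 95% interval 3.73 to 5.58), while other cells held 0.263 and 0.744 CPM. Gpm6a (2.89, 1.89 to 4.13), Sema3d (1.83, 1.27 to 2.45), Lrrn4 (1.30, 1.03 to 1.57), Aldh1a2 (1.18, 0.90 to 1.47) and Tcf21 (1.11, 0.93 to 1.29) were each higher at E10.5 in marked cells and lower in other cells (-0.32 to -1.44). The majority clusters held 34 of the 113 marked cells at E9.5 and 268 of the 342 at E10.5. The E9.5 set was cluster 10 alone, and the E10.5 set pooled clusters 3 and 4. Within these sets, Krt7 (4.52), Gpm6a (2.75) and Aldh1a2 (6.20, from 1 UMI at E9.5) stayed over 2-fold higher, whereas Lrrn4 (0.65, 0.30 to 1.03), Sema3d (0.68, 0.02 to 1.41) and Tcf21 (0.10, -0.12 to 0.33) did not. These smaller ratios include cluster 4. Cluster 3 alone had Lrrn4 at 180, Sema3d at 57.3 and Tcf21 at 352 CPM, against 90.4, 26.6 and 247 CPM in E9.5 cluster 10. Upk3b (1.88, 1.73 to 2.03) and Upk1b (2.95, 2.49 to 3.44) were part of the selection. Krt18 (-0.20) and Krt8 (-0.56) were lower by less than 2-fold, and Itga4 (0.10, -0.15 to 0.36) and Sox9 (0.10, -0.13 to 0.34) had intervals that included 0. In other cells the ratios of Krt18 and Krt8 were -1.87 and -2.51. Within the majority clusters, Itga4 was lower at E10.5 (211 to 81.7 CPM; -1.37, -1.63 to -1.11), and so was Sox9 (234 to 96.4 CPM; -1.28, -1.52 to -1.03). The E10.5 values again include cluster 4, which had less of both genes than cluster 3. Sox9 stood at 137 CPM in cluster 3 and 16.5 CPM in cluster 4. Sfrp5 was lower in marked cells (145 to 35.1 CPM, -2.04) and, by a larger ratio, in other cells (37.5 to 1.85 CPM, -4.34). Of the retinoic acid genes, Aldh1a1 went from 6.71 to 72.3 CPM (3.43, 2.76 to 4.19), with a ratio of 0.65 in other cells.

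Basement membrane genes were higher in 6 of 13 and lower in 0 (median log2 ratio 0.85), ligands higher in 9 of 19 and lower in 2 (0.99), epithelial genes higher in 6 of 15 and lower in 0, and receptors higher in 0 of 21 and lower in 2. The median over all genes was -0.01. Of the 6 epithelial genes, Cldn4, Cldn6 and Cldn7 had UMIs in only 4, 2 and 3 of the E10.5 marked cells, so that intervals over UMIs understate their error. Col4a1, a chain of basement membrane collagen, went from 17.5 to 75.2 CPM (2.10, 1.67 to 2.56; other cells 0.38), Fn1 from 172 to 383 CPM (1.16, 1.01 to 1.30; other cells -0.16), Ezr from 136 to 275 CPM (1.02, 0.86 to 1.18; other cells -0.51; 0.88 within the majority clusters) and Wnt11 from 4.47 to 13.9 CPM (1.64, 0.78 to 2.63). No S phase or G2/M gene of 12 each was counted.

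A group of genes was taken after the data were seen, from counted genes that reached 50 CPM in the higher stage. Only genes that differed less than 2-fold between stages in other cells were considered, which left out Krt7 and the globin gene Hbb-y. The genes named here were among those whose stage ratio in marked cells then stood farthest from that in other cells. Kcne1l went from 11.9 to 142 CPM (3.57, 3.07 to 4.13; other cells 0.85), the calcium-binding S100a6 from 19.0 to 146 CPM (2.94, 2.54 to 3.37; other cells 0.38), and the proteoglycan Dcn from 44.7 to 215 CPM (2.26, 2.0 to 2.54; other cells 0.41). Hand1, a transcription factor of lateral and extraembryonic mesoderm, went from 72.7 to 7.63 CPM (-3.25, -3.69 to -2.83; other cells -0.44). The secreted Cthrc1 went from 69.0 to 33.8 CPM (-1.03; other cells 0.93).

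The largest ratios of all moved with the whole library. The globin gene Hbb-y stood at 1.86 CPM in E9.5 marked cells and 8233 CPM in E10.5 marked cells, and at 136 and 54563 CPM in other cells. Hba-a2 had 0 UMIs in E9.5 and 1088 in E10.5 marked cells. The 7 erythroid markers together stood at 15456 CPM in E10.5 marked cells, 14512 CPM in gated posterior second heart field cells and 15240 CPM in gated endothelial cells. The metallothioneins Mt1 (4.47 to 119 CPM) and Mt2 (0.746 to 62.9 CPM), Cebpb and mt-Atp8 were higher at E10.5 in marked and in other cells alike. At the low end, Adm (56.7 to 1.70 CPM), Tpm3-rs7, Gm5611, Phlda2 (62.3 to 5.69 CPM) and Bnip3 (151 to 21.4 CPM) were lower in marked and other cells. Cardiomyocyte markers were lower at E10.5 in 8 of 11 (median log2 ratio -2.24), among them Ttn (71.6 to 10.1 CPM, other cells 152 to 46.8). Myl3, which is not on that list, was lower too (111 to 21.4 CPM, other cells 242 to 63.3). Within the majority clusters the Ttn ratio was 0.60, and without the marked cells that held 1% or more cardiomyocyte gate UMIs the Myl3 ratio was 0.17.

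**Figure D5:**
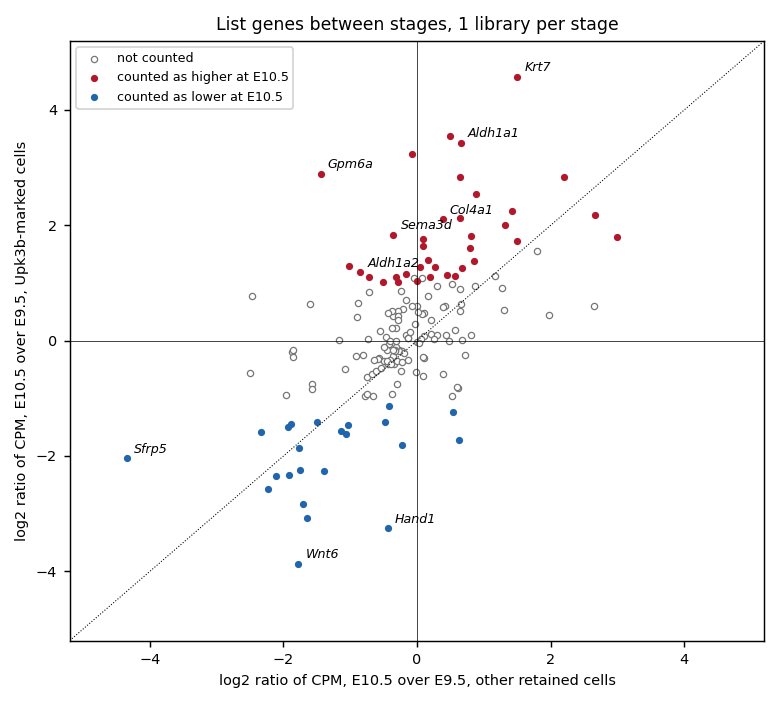
Log2 ratio of CPM at E10.5 over E9.5 in other retained cells (x axis) against Upk3b-marked cells (y axis) for 176 list genes, 1 of them outside the axes, with 1 library per stage and the dotted diagonal marking equal ratios. Krt7, Aldh1a1 and Gpm6a lie well above the diagonal and Hand1 and Wnt6 below it.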

How the data were processed

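The authors made 3′ droplet libraries (10x Genomics version 2 chemistry), aligned reads to mm10 with Cell Ranger 3.1.0 and deposited raw UMI counts per gene and cell, not normalized and limited to barcodes called as cells. Cells with 1000 or more genes and at most 10% mitochondrial UMIs were retained. The selected cells and the 20 gene lists (236 distinct genes) were chosen with earlier results of these data known. Doublet scores (Scrublet in scanpy 1.11.5) were ranked and the top 0.8% per 1000 cells removed only as an alternative. Each library was clustered with 2000 variable genes, 30 principal components, 15 neighbours and the Leiden algorithm (igraph 0.11.9, resolution 1), without the 6 selection genes. UMI sums per library and class were tested in edgeR 4.0.16 (R 4.3.3; TMM, filterByExpr, quasi-likelihood, library block, prior degrees of freedom 6.80), with DESeq2 1.42.0 as an alternative. CPM were computed from these sums. Cells with 3 or more of 5 endothelial genes formed the endothelial gate, and cells with 1% or more UMIs from 5 cardiomyocyte genes the cardiomyocyte gate. On simulated counts for the comparison with other cells (14588 genes), 97 of 100 genes changed 4-fold and 13 of 100 changed 2-fold were recovered, with 0 false calls. For the posterior second heart field (12755 genes) and cardiomyocyte (11259 genes) comparisons, 93 and 94 of 100 changed 4-fold were recovered, with 7 and 4 false calls. The simulated counts had 1 fixed spread for all genes and the same class difference in each library. Changed genes were drawn from those with more UMIs. The real libraries differ in stage, so these false calls do not give the error rate of the real test. Beside list genes, named genes were the 10 called genes with the largest and the 10 with the smallest fold change that reached 50 CPM in the higher class in each library. Gene positions and promoters came from RefSeq on GRCm38.p6. Intervals are exact and cover counting error only.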

Additional observations from a re-analysis of the deposited data

Results flagged for a closer look

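Genes of the lists whose marked cells stood above other cells in 1 late library and below them in the other, each with an interval that left out 0, are given here as log2 ratios of CPM; with 1 library per stage the difference between the ratios was not tested. Hand1 had 1.35 (E9.5) and -1.46 (E10.5), a difference of -2.81. Col4a1 had -0.99 and 0.73 (1.72), and Col4a2, the chain it pairs with in basement membranes, -0.71 and 0.97 (1.68). Myl7, an atrial myosin light chain, had -0.40 and 1.30 (1.70), and it stood at 1574 CPM in E10.5 cluster 3 against 305 CPM in cluster 4, while Actc1 stood at 38.6 and 17.4 CPM. Robo1, a receptor for Slit guidance factors, had 1.00 and -0.49 (-1.48), Pdgfc 0.48 and -0.48 (-0.963), Twist1 0.39 and -0.37 (-0.761), Col3a1 0.27 and -0.09 (-0.367) and the cyclin Ccnb2 -0.27 and 0.38 (0.65).

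The same rule applied to libraries outside the report's comparisons picked 0.343% of retained cells at E8.0 (26 cells) and 2.4% at E8.25 (71 cells), from other dissected tissue and at median depths of 21663 and 35467 UMIs.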

How the results depend on the processing

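Of 72 counts and shares recomputed under another setting, 41 were counted as unchanged and 31 as moved. The limits for gene counts were wide. Counted as unchanged were 1164 genes higher than in other cells for the majority clusters alone, against 793 reported. So were 836 genes higher than in the posterior second heart field gate without the cells of highest doublet score, against 1101 reported. The selected share was 3.87% (E9.5) and 6.19% (E10.5) with 1 second marker, 1.31% and 3.01% with 3, and 0.571% and 2.38% with cells thinned to 5000 UMIs, so the number of cells depends on depth. Against other cells, genes counted as higher and lower were 1276 and 1260 without the filter on low counts, 0 and 0 without the library block (911 and 708 at an unadjusted p below 0.05), 1218 and 1137 with 3 second markers, and 429 and 315 after thinning. DESeq2 gave 563 and 337, of which 559 and 336 were among the reported calls. With alternatives chosen after seeing the data, 1164 and 1204 passed for the majority clusters alone, 279 and 340 for marked cells outside them, and 410 and 365 against other cells of the marked cells' median depth or more. Against the posterior second heart field gate, DESeq2 gave 642 and 256, and 1282 were lower without the filter. Without the cells of highest doublet score, 836 were higher and 461 lower than in that gate, against 1101 and 639 reported. Of these, 833 and 450 were among the reported calls. The same removal gave 762 and 647 against other cells, 1301 and 1556 against cardiomyocytes, and 790 and 366 between stages. Against the cardiomyocyte gate, DESeq2 gave 437 and 750, and 1899 were higher without the filter. Between stages, 164 genes were higher and 208 lower after thinning, and 433 were higher outside the majority clusters. The largest share of E9.5 marked cells in 1 cluster was 56.6% at resolution 0.5 and 44.2% with seed 1. Among 5113 values of single genes, 15 were counted as changing sign. In comparisons of cell classes, only genes called in the main fit could be counted so. Uncalled genes such as Hand1, which also differed in sign between the libraries, were not counted. The counted genes outside the majority clusters were Igf2 (-0.0303), Itga4 (-0.20), Sox9 (-1.42), Tubb3 (-1.09), Nr2f1 (0.0906) and Osr1 (0.0151). Cldn6 was -0.55 with 3 second markers and -0.00606 after thinning, and Meis2 was 0.0354 against deeper cells. The stage ratio was 0.41 for Phlda2, 0.85 for Csrp3 and 0.0754 for Myl3 after thinning, 0.60 for Ttn and 0.40 for Csrp3 in the majority clusters, and 0.17 for Myl3 without cells holding 1% or more cardiomyocyte gate UMIs. The cause of these changes was not tested. No paired analysis was possible because each stage has 1 library. No library could be left out of the test, which needs both, but ratios of single genes in 1 library are among the 5113 values. Hba-a2 has no finite stage ratio, and neither has Hand1 after thinning.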
